A study of Mus musculus with 22 samples.

Results

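The genes described here are 36 genes of T cells and cytotoxic lymphocytes of the gut lining, out of 54838 genes counted in the mouse ileum. They were chosen by name, as genes for the T cell receptor, its signalling chain, gut homing and killing, and all 36 were found through their Ensembl identifiers. The libraries come from female mice on the FVB/NJ background, aged 8 to 14 weeks and kept in a conventional animal house. GRDim mice carry a point mutation that impairs dimerisation of the glucocorticoid receptor GR in every cell, and GRWT mice are the wild types of the same heterozygous crosses. For 7 days the animals received either normal drinking water or 25 mM ZnSO4 in it, which gave 5 GRWT water, 5 GRWT zinc, 6 GRDim water and 6 GRDim zinc libraries, and the comparisons ask how zinc and GR dimerisation bear on gene expression in the ileum.

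The tissue labels, ileum for 12 libraries and IEC (scraped intestinal epithelium) for 10, did not follow the muscle content of the libraries. The labels are used as given, and whether some were exchanged was not tested, which bears on every fit with the tissue label. Myh11, the myosin heavy chain of smooth muscle, stood between 298 and 463 CPM (counts scaled to a common library total of reads assigned to genes) in 12 libraries and between 3.22 and 20.5 CPM in the other 10. Libraries above 100 CPM are called muscle-rich here and the others muscle-poor, and zinc and genotype were tested apart in these 2 kinds, fits over all 22 libraries being named where they are used. The muscle-rich kind holds GRWT water replicates 1, 4 and 5, GRWT zinc replicates 1, 4 and 5, GRDim water replicates 4, 5 and 6 and GRDim zinc replicates 1, 2 and 3. The muscle-poor kind holds GRWT water replicates 2 and 3, GRWT zinc replicates 2 and 3, GRDim water replicate 1 with a pair of unnumbered libraries, and GRDim zinc replicates 4, 5 and 6. Of the muscle-rich libraries 5 are labelled ileum and 7 IEC, and of the muscle-poor ones 7 ileum and 3 IEC. Among GRDim libraries of either kind the water and the zinc libraries carry different tissue labels, so that label and zinc cannot be told apart there. The library totals ran from 13149951 to 15620744 counts. All CPM other than these of Myh11 were also divided by a scaling factor of the library (TMM, trimmed mean of M values), which was 0.641 in muscle-poor GRWT zinc replicate 3 and 0.909 to 1.12 in the other libraries, so that the values of that replicate stand well above those by library total. The epithelial list of 10 genes summed to between 16000 and 28800 CPM in all libraries, so that each held abundant epithelium, while Fabp6, the ileal bile acid-binding protein, stood at 18.3 CPM in muscle-poor GRWT zinc replicate 3 and at 3970 to 11500 CPM in the other libraries. The series was sequenced in 2 sets, and the sample titles carry a number, 1 or 2, that divides the libraries exactly as the tissue label does. Whether this number marks the sets is not stated, and if it does, set and tissue label cannot be told apart. The labels do not say which libraries came from the same mouse, so the p-values measure the spread between these libraries.

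Intraepithelial lymphocytes are T cells lodged between the enterocytes of the gut. Some carry an alpha-beta and some a gamma-delta T cell receptor, many carry CD8 made of 2 alpha chains rather than an alpha and a beta chain, and they are held in place by the integrin of alpha E (Itgae) and beta 7 (Itgb7), which binds E-cadherin on the epithelium. They hold granzymes ready made, proteases that enter a target cell through the pore protein perforin. CD4 T cells, by contrast, lie mostly in the lamina propria below, together with plasma cells and macrophages. Since the RNA is from bulk tissue, fewer lymphocytes and less RNA of these genes per lymphocyte cannot be told apart.

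The sequences upstream of 5 genes with a matched promoter, for a pair of granzymes, a co-receptor, a CD3 chain and a surface protein, are shown because the mutation acts on a factor that binds DNA. Each is the 250 bases before the transcription start in RefSeq (GRCm38.p6), given on the strand of the gene, with matches to 4 short motifs in capitals. The motifs searched on both strands were the GR half-site AGAACA, the Runx core TGTGGT, the T-box core GGTGTG and the Ets core GGAAGT. The 5 sequences come from chr13:113100982-113101231 (minus strand) for Gzma, chr14:56262335-56262584 (minus) for Gzmb, chr6:71373177-71373426 (plus) for Cd8a, chr9:45009612-45009861 (minus) for Cd3e and chr19:10738975-10739224 (minus) for Cd5.
Gzma: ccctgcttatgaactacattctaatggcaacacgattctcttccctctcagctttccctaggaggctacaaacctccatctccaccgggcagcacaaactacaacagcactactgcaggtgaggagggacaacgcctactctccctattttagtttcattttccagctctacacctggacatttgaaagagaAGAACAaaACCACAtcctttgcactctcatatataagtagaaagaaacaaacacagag
Gzmb: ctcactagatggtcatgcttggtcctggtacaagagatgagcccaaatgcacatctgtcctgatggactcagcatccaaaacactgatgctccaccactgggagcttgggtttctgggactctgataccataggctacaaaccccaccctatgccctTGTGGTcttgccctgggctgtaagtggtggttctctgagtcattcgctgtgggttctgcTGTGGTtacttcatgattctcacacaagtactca
Cd8a: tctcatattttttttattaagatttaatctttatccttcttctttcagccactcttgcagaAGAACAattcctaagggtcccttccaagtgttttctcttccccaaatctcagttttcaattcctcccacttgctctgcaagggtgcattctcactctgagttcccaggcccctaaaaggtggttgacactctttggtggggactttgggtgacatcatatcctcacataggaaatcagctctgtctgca
Cd3e: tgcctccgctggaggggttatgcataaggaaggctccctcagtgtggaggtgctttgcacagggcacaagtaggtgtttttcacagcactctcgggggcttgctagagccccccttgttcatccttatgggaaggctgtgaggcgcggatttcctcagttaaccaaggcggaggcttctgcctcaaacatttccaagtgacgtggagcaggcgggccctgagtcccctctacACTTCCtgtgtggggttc
Cd5: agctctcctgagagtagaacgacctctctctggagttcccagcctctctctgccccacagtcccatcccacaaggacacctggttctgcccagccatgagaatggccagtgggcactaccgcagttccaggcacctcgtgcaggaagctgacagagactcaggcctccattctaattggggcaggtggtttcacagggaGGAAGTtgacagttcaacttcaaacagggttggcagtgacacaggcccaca

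RefSeq promoters were matched for 22 of the 36 genes, 27 promoters in all. The GR half-site lay in the window of 5 of the 27, beside 16% of all 32536 promoters, and both Gzma and Cd8a hold it. The Runx core lay in 11 of the 27 (14% of all promoters), the T-box core in 9 (16.3%) and the Ets core in 12 (19.8%). A match describes these letters only, and says nothing of whether a factor is bound there.

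Per kilobase of exon, the median level over the muscle-rich libraries was highest for Gzma (granzyme A, 46.8 CPM per kb), Ccl5 (a chemokine that draws T cells, 42.8) and Gzmb (granzyme B, 21.5), and over the muscle-poor libraries for Ccl5 (102.0), Gzma (83.6) and Gzmb (34.0). The constant chain Trbc2 (15.9 in muscle-rich and 19.4 in muscle-poor libraries) followed further down. The lowest medians were those of Eomes, a transcription factor of cytotoxic cells (0.103 and 0.115), and of Klrk1, the NKG2D receptor for stress ligands (0.254 and 0.0158). Trbc1 and Trbc2, the constant regions of the T cell receptor beta chain, have their first 382 transcript bases in common except for 1 base (GENCODE M21). The comparison was ended before the next differing base, and the transcripts are 737 and 692 bases long. The stretch around that 1 base, in capitals, is shown because it is what keeps the reads of these 2 genes apart there.
Trbc1: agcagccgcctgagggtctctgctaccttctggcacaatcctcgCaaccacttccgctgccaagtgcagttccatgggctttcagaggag
Trbc2: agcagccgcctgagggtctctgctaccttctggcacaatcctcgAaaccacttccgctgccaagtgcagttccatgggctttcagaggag
Reads that mapped to several places were not counted, so the share of reads given to either gene is uncertain. Exons of Cd247, which encodes the CD3 zeta chain, share 3007 bases with exons of Pou2f1 on the other strand, and the use of strand in the counting is not given in the sources used here, so its counts are uncertain too. The same holds for Cd7, which shares 122 exon bases with Gm11775 on the other strand, for Cd160 (68 with Pdzk1), for Ccr9 (1932 with AC165425.1 and 22 with Slc6a20a), for Trdc (207 with Trdv5 and 96 with Gm43434), for Cd3e (135 with Gm48719), for Eomes (118 with Gm33460) and for Xcl1 (98 with Gm20743).

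**Figure D1:**
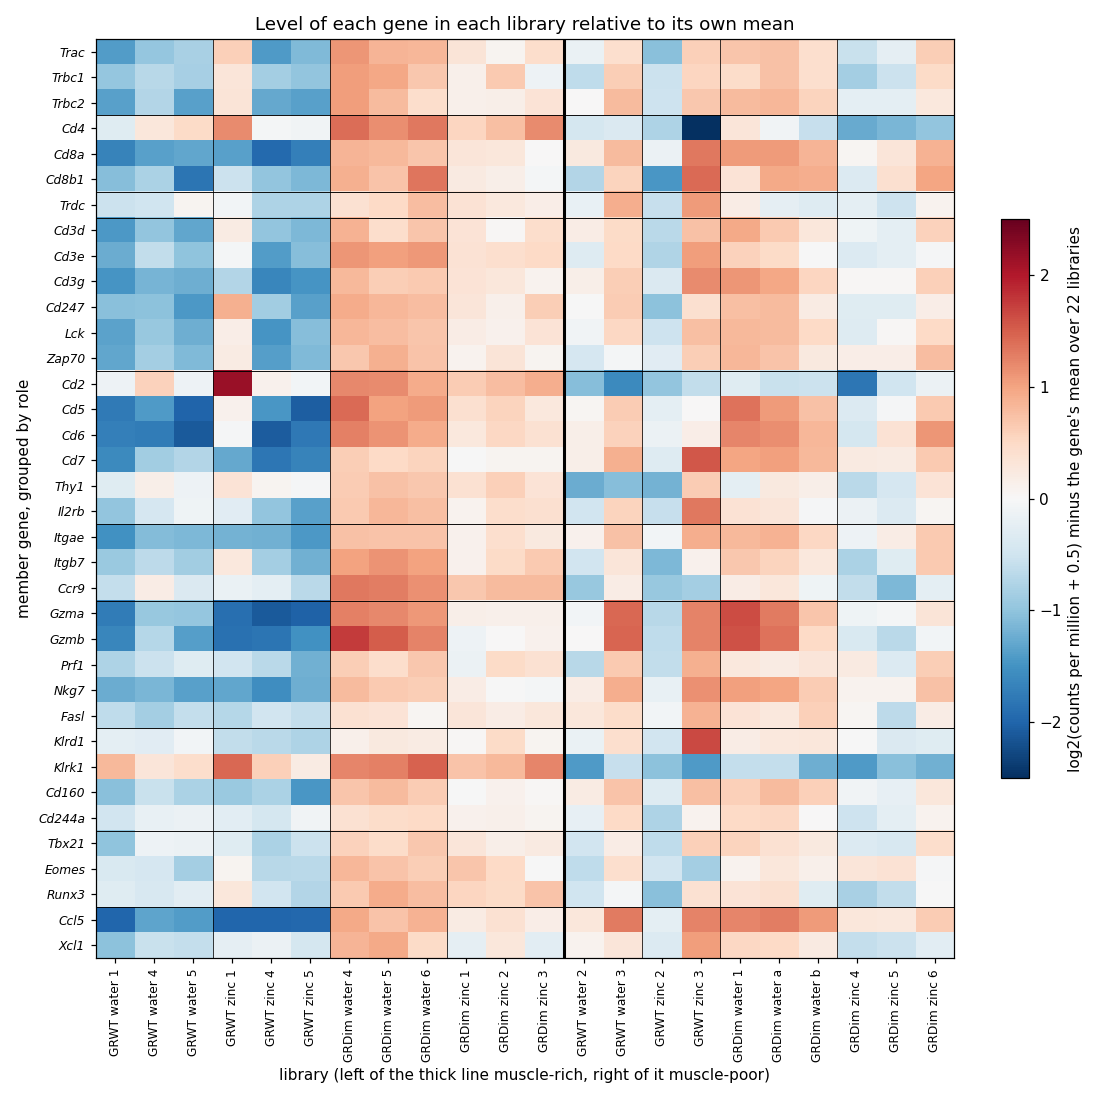
Level of each of the 36 genes in each of the 22 libraries, as log2(CPM + 0.5) minus the mean of that gene over all libraries, with colours limited at 2.5 in both directions and the muscle-rich libraries left of the thick line. In the muscle-rich libraries the GRDim water columns are high for nearly all genes and the GRWT columns low, except that GRWT zinc replicate 1 is high for T cell receptor and signalling genes and low for Gzma (15.6 CPM) and Gzmb (10.7 CPM).

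The first comparison asks whether the genes differ between GRDim and GRWT mice on normal water. In muscle-rich libraries 33 of the 36 genes were called higher in GRDim mice and 0 lower, where called means an adjusted p under 0.05 and a log2 fold change beyond 0.8. Of all 15947 genes tested 10.5% were called, 5.02% higher and 5.47% lower in GRDim. In all 36 genes every GRDim water library stood above every GRWT water library, an order found in 26.8% of genes over 1 CPM in at least 3 libraries. The median log2 fold change of the 36 genes was 2.01, beside -0.0028 for all genes tested. DESeq2, another tool for counts, called 32 of the 36.

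All 5 cytotoxic effectors were called, with a median of 2.06 on the log2 scale. Gzma stood at 17.1, 30.3 and 29.9 CPM in the 3 GRWT water libraries and at 142.0, 135.0 and 125.0 CPM in the 3 GRDim water libraries, so that the lowest GRDim library lay far above the highest GRWT library. Its log2 fold change was 2.40 ± 0.17 (SE, adjusted p = 4.84e-06). Gzmb stood at 12.7, 24.6 and 15.3 CPM in GRWT and at 137.0, 117.0 and 96.5 CPM in GRDim libraries, a log2 fold change of 2.75 ± 0.23 (adjusted p = 2.29e-05). Prf1, which encodes perforin, was scarce at 0.913, 1.15 and 1.45 CPM in GRWT and rose to 3.20, 2.77 and 3.36 CPM in GRDim libraries, a log2 fold change of 1.43 ± 0.28 (adjusted p = 0.000879). The remaining effectors were Nkg7, a protein of the cytotoxic granule (2.06 ± 0.13), and Fasl, the ligand of the death receptor Fas (1.31 ± 0.23). The chemokine Ccl5 went from 13.2, 21.4 and 20.3 CPM to 105.0, 88.2 and 98.3 CPM, a log2 fold change of 2.43 ± 0.14 (adjusted p = 3.07e-07). Xcl1, a chemokine that attracts cross-presenting dendritic cells, was called too (2.09 ± 0.30).

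The genes of the alpha-beta T cell receptor and its signalling chain had log2 fold changes of similar size. Trac, the alpha constant region, stood at 2.22, 3.14 and 3.58 CPM in GRWT water and at 14.8, 12.3 and 12.2 CPM in GRDim water libraries, a log2 fold change of 2.15 ± 0.51 (adjusted p = 0.00941). Cd3e, a chain of the CD3 complex that every T cell receptor needs, stood at 3.52, 5.67 and 4.2 CPM in GRWT and at 19.8, 18.7 and 19.5 CPM in GRDim libraries (2.12 ± 0.30, adjusted p = 0.000362). For both genes the ranges of the 2 genotypes were far apart. Cd247 went from 1.5, 1.51 and 1.03 CPM to 7.31, 6.79 and 6.53 CPM (2.36 ± 0.59, adjusted p = 0.0111). All 3 alpha-beta constant genes and all 6 CD3 and signalling genes were called, with medians of 2.02 and 2.11 on the log2 scale.

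Trdc, the delta constant region and thus the mark of gamma-delta T cells, had a lower fold change. Trdc stood at 3.46, 3.56 and 5.51 CPM in GRWT water and at 6.98, 7.65 and 9.36 CPM in GRDim water libraries, a log2 fold change of 0.96 ± 0.22 (adjusted p = 0.00325). Per kilobase of exon the ratio of Trdc to Trac was 0.341 ± 0.058 (SD, n = 3) in GRWT water and 0.150 ± 0.036 (SD, n = 3) in GRDim water libraries, and the ranges, 0.274 to 0.377 and 0.114 to 0.186, did not overlap. The ratio is given as a description with no test, since an exact permutation test of 3 libraries against 3 cannot reach 0.05. Of 7 other gamma-delta genes with enough counts, 5 were called higher in GRDim mice: Tcrg-C2 (2.69 ± 0.12), Tcrg-C4 (1.83 ± 0.21), Tcrg-V1 (1.63 ± 0.46) and Tcrg-V7 (1.59 ± 0.27) led, and Tcrg-C1 followed (1.12 ± 0.17). Tcrg-V4 (0.28 ± 0.37) and Sox13 (-0.30 ± 0.06), a transcription factor gene at 76.8 to 87.2 CPM in GRWT water and 64.3 to 69.4 CPM in GRDim water libraries, were not called. With Sox13 included, the list summed to 94.2 to 102 and 120 to 125 CPM. The fold change of Trdc was thus close to that of Tcrg-C1 and under those of the other gamma chain genes called.

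Both chains of CD8 were called, and CD4 as well. Cd8a stood at 9.0, 11.3 and 11.8 CPM in GRWT water and at 54.1, 52.8 and 48.3 CPM in GRDim water libraries, a log2 fold change of 2.29 ± 0.14 (adjusted p = 1.32e-07). Cd8b1, the beta chain, was much scarcer at 1.17, 1.51 and 0.482 CPM against 5.94, 5.21 and 8.24 CPM (2.61 ± 0.30, adjusted p = 1.28e-05). Cd4 stood at 7.30, 11.2 and 12.9 CPM against 25.1, 21.2 and 23.7 CPM (1.17 ± 0.37, adjusted p = 0.0342). The ratio of Cd8a to Cd4 per kilobase was 1.17 ± 0.18 (SD, n = 3) in GRWT and 2.47 ± 0.26 (SD, n = 3) in GRDim libraries, without overlap, while that of Cd8b1 to Cd8a overlapped between 0.0998 to 0.328 and 0.242 to 0.419.

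Cd5 and Cd6, related receptors that damp T cell receptor signals, had the highest fold changes of the 36 genes. Cd5 stood at 1.37, 1.87 and 1.10 CPM in GRWT water and at 16.6, 12.3 and 12.8 CPM in GRDim water libraries (3.26 ± 0.55, adjusted p = 0.00144). Cd6 went from 2.41, 2.35 and 1.72 CPM to 22.4, 20.2 and 17.8 CPM (3.23 ± 0.52, adjusted p = 0.00133). Eomes had a fitted log2 fold change of 2.88 ± 0.66, but its GRWT water libraries held 0.196, 0.181 and 0 CPM, at or under the level of 3 reads, against 1.11, 0.989 and 0.883 CPM. Itgae, the alpha E chain, was the member with the smallest adjusted p: it stood at 11.5, 15.6 and 15.2 CPM in GRWT and at 56.4, 55.6 and 55.7 CPM in GRDim libraries (2.01 ± 0.11, adjusted p = 6.70e-09). Its partner Itgb7 (1.93 ± 0.33) and Ccr9, the receptor for the gut chemokine CCL25 (1.53 ± 0.17), were called as well.

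The genes that were not called were Cd2, an adhesion receptor of T cells (1.19 ± 0.65, adjusted p = 0.182), and a pair of NK-type receptors, Klrd1 (0.46 ± 0.18, adjusted p = 0.0506) and Cd244a (0.79 ± 0.14, adjusted p = 0.00058). Cd244a passed on p and fell short of the fold threshold. The 4 NK-type receptors together had the lowest median of the roles with more than 1 gene, 0.90. Thy1, a surface protein of T cells and some stromal cells, was called just past the threshold (0.80 ± 0.12).

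**Figure D2:**
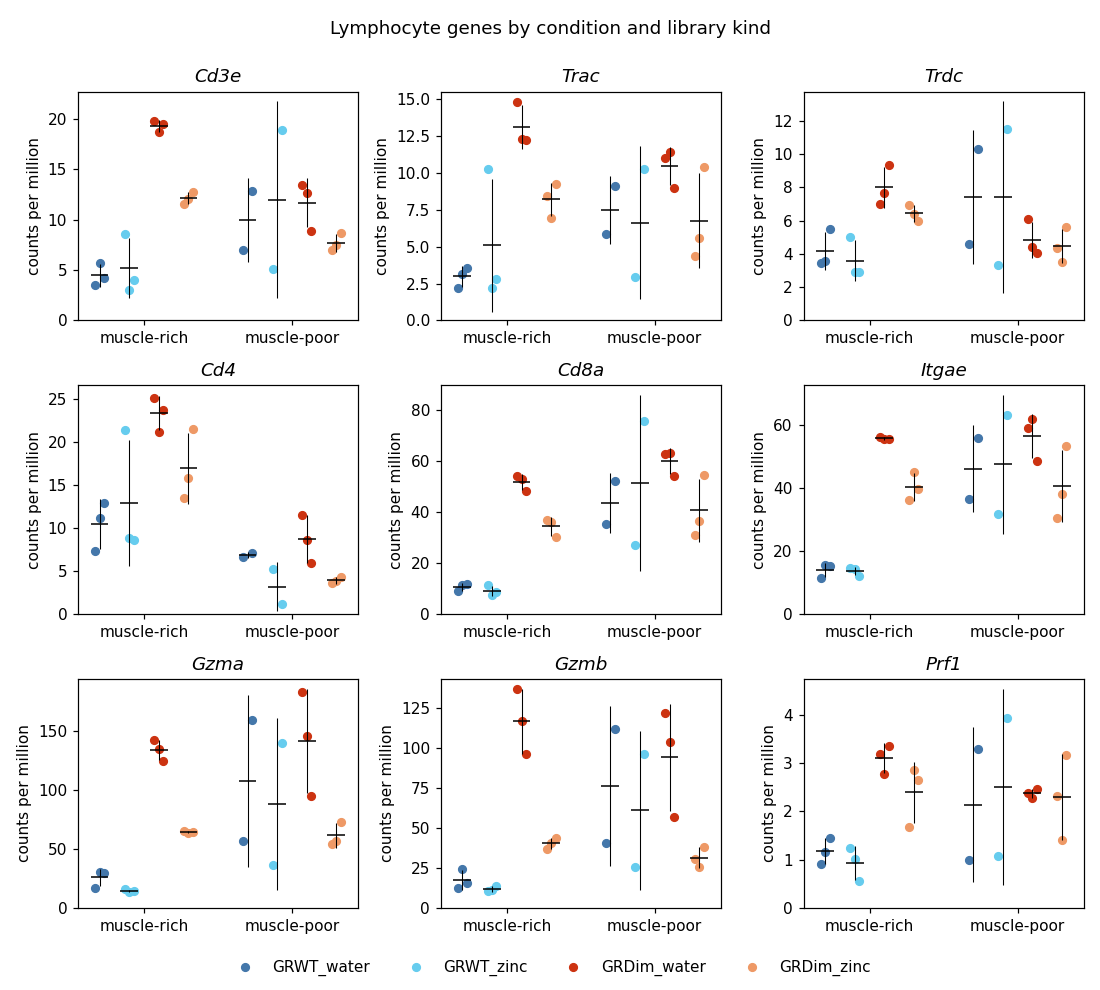
CPM of 9 lymphocyte genes in each library (points), with the mean (line) and SD (vertical bar) of each condition, apart for muscle-rich and muscle-poor libraries. In muscle-rich libraries the 3 GRDim water points of Gzma (125.0 to 142.0 CPM) and Cd8a (48.3 to 54.1 CPM) sit above all other muscle-rich points, and in muscle-poor libraries the 2 GRWT points of Gzma lie apart on water and on zinc.

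GRWT water replicate 1 is the only muscle-rich water library with the ileum label, and without it, so with IEC libraries only, 31 genes were called (8.74% of all genes). Fits over all 22 libraries called 25 when the covariate was the muscle split (5.73% of all genes) and 5 when it was the tissue label (1.43%). Other cell types differed between the same libraries. The 5 plasma cell genes summed to 1370 to 1760 CPM in GRWT water and 3660 to 4620 CPM in GRDim water libraries, with 4 of 5 called higher. The 12 B cell and follicle genes summed to 17.2 to 22.8 and 49.8 to 57.8 CPM (0 of 9 tested called), and the 9 macrophage and dendritic cell genes to 139 to 188 and 223 to 238 CPM (1 of 9 called). Mast cell and granulocyte genes summed to 1.96 to 4.10 and 10.6 to 18.2 CPM (4 of 5 tested called), and those of the ileal segment, Fabp6 among them, to 9190 to 10700 and 5530 to 6990 CPM (0 of 5 called). Smooth muscle genes summed to 2310 to 2530 CPM in GRWT water and 1760 to 1990 CPM in GRDim water libraries (0 of 10 called). The part of these cell types and of the position along the ileum in the difference of the 36 genes was not tested. The 10 epithelial genes, 16800 to 17500 against 17600 to 18700 CPM, differed little beside the lymphocyte genes.

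On zinc water, 19 of the 36 genes were called higher in GRDim than in GRWT muscle-rich libraries and 0 lower, beside 4.40% of all genes called, 2.43% higher and 1.97% lower. In 22 genes the libraries of the genotypes did not overlap, an order found in 18.0% of genes. Fits over all 22 libraries called 1 gene with the muscle split as covariate (3.93% of all genes) and 0 with the tissue label (0.115%), and a fit of the numbered libraries with the split and a replicate block called 1 (0.803%). Each replicate number has the same tissue label in every condition, so the block also adjusts for the label. All 5 cytotoxic effectors were called. Gzma stood at 15.6, 13.3 and 14 CPM in GRWT zinc and at 65.4, 63.8 and 64.1 CPM in GRDim zinc libraries (2.16 ± 0.18, adjusted p = 4.67e-05). Gzmb stood at 10.7, 11.1 and 13.9 CPM against 37.0, 40.7 and 43.8 CPM (1.76 ± 0.24, adjusted p = 0.00142), and Prf1 at 1.24, 1.02 and 0.551 CPM against 1.67, 2.87 and 2.65 CPM (1.33 ± 0.29, adjusted p = 0.0053). None of these ranges overlapped between genotypes. Ccl5 at 13.3, 13.3 and 13.5 CPM against 62.4, 70.8 and 60.7 CPM had the highest fold change of the called genes (2.26 ± 0.14, adjusted p = 1.98e-06). Between the same GRWT zinc and GRDim zinc libraries the plasma cell genes summed to 1050 to 1680 and 3360 to 4280 CPM (4 of 5 called higher) and the mast cell and granulocyte genes to 2.69 to 5.46 and 7.16 to 8.93 CPM (1 of 5 tested called higher). The B cell and follicle genes summed to 16 to 333 and 32.9 to 42.2 CPM (0 of 9 tested called), those of macrophages and dendritic cells to 151 to 188 and 170 to 220 CPM (0 of 9), those of the epithelium to 16000 to 18300 and 19600 to 20000 CPM (0 of 10), those of smooth muscle to 1680 to 2210 and 1550 to 1990 CPM (0 of 10) and those of the ileal segment to 10000 to 12400 and 6210 to 10500 CPM (0 of 5). The part of these cell types in the result was not tested.

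Of the homing genes Itgae and Ccr9 were called and Itgb7 was not (0.90 ± 0.33, adjusted p = 0.094), and of the co-receptors Cd8a and Cd8b1 were called and Cd4 was not. Cd8a stood at 11.3, 7.34 and 8.74 CPM in GRWT zinc and at 36.8, 36.2 and 30.0 CPM in GRDim zinc libraries (1.90 ± 0.14, adjusted p = 2.32e-06). Itgae stood at 14.5, 14.4 and 12.1 CPM against 36.4, 45.3 and 39.9 CPM (1.56 ± 0.11, adjusted p = 2.93e-07). Cd7, a surface protein common on intraepithelial lymphocytes, stood at 7.15, 4.82 and 5.37 CPM against 17.9, 19.0 and 19.0 CPM (1.68 ± 0.19, adjusted p = 0.000118). Cd3g (1.51 ± 0.20) and Nkg7 (1.49 ± 0.13) completed the 8 called genes with the highest fold changes. Each of these 5 genes was separated between the genotypes in these libraries.

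The alpha-beta genes were not called on zinc water, and 1 library set that result. Trac stood at 10.3, 2.17 and 2.82 CPM in GRWT zinc replicates 1, 4 and 5 and at 8.41, 6.97 and 9.22 CPM in GRDim zinc libraries (0.68 ± 0.49, adjusted p = 0.393), so that replicate 1 lay above all GRDim libraries. The same replicate was the highest of its group for Cd247 (7.09 CPM against 1.75 and 1.10), Cd5 (6.37 against 1.81 and 1.03), Lck, the kinase of the T cell receptor (19.2 against 5.84 and 7.92), Cd2 (7.28 against 1.38 and 1.17) and Cd4 (21.4 against 8.79 and 8.61). It did not stand apart for Itgae, Ccl5, Gzmb or Gzma. The B cell and follicle genes summed to 333 CPM there and to 16 to 57.8 CPM in the other 11 muscle-rich libraries, and Ms4a1, which encodes the B cell protein CD20, stood at 56.8 CPM against at most 2.74 CPM in the other 21 libraries. Without replicate 1, 32 of the 36 genes were called higher in GRDim, with a median of 1.53 in place of 1.08, beside 5.21% of all genes called. The GRDim zinc libraries are labelled ileum and GRWT zinc replicates 4 and 5 IEC, so that without replicate 1, which is labelled ileum, genotype and tissue label cannot be told apart. Trac then had a log2 fold change of 1.71 ± 0.21 (adjusted p = 5.28e-05), Cd5 of 2.45 ± 0.25 (with replicate 1, 1.35 ± 0.51 and adjusted p = 0.0983) and Cd4 of 0.95 ± 0.24 (with replicate 1, 0.37 ± 0.37). Gzma then had 2.23 ± 0.22, close to its value with the replicate, and Trdc 1.14 ± 0.21 (with replicate 1, 0.83 ± 0.23 and adjusted p = 0.0201).

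**Figure D3:**
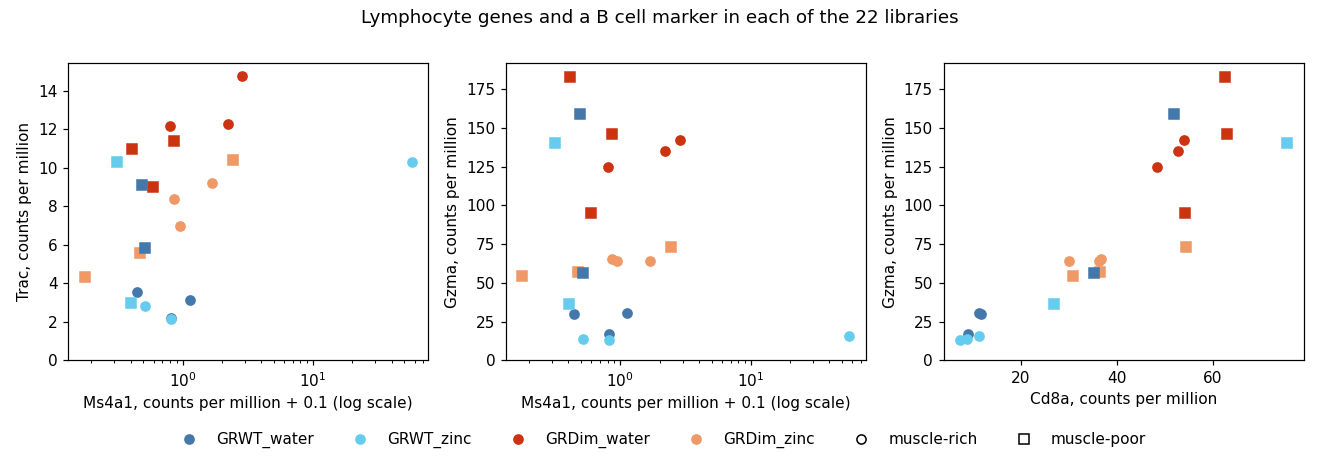
CPM of Trac and Gzma in each of the 22 libraries against Ms4a1 (log axis, CPM + 0.1), and of Gzma against Cd8a, with muscle-rich libraries as circles and muscle-poor as squares. GRWT zinc replicate 1 sits alone at the right with Ms4a1 at 56.8 CPM, high for Trac (10.3 CPM) and low for Gzma (15.6 CPM).

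The zinc comparison asks whether zinc water changed the genes within a genotype. In muscle-rich GRDim libraries 4 of the 36 genes were called lower on zinc and 0 higher, beside 1.33% of all genes called, 0.558% lower and 0.771% higher. By adjusted p alone 9 were lower (3.24% of all genes). The libraries did not overlap in 29 of the 36 genes, all of them lower on zinc, an order found in 15.1% of genes, and 35 of the 36 fold changes were negative with a median of -0.55 (all genes -0.01). For all these GRDim libraries the water ones are labelled IEC and the zinc ones ileum, so that zinc and label cannot be told apart. Fits over all 22 libraries called 0 of the 36 genes, both with the muscle split (0.556% of all genes) and with the tissue label as covariate (0.0767%). A fit of the numbered libraries with the split and a replicate block, which also adjusts for the tissue label, called 8 (1.42%). The fit with the split but without the follicle-rich and the Fabp6-poor GRWT zinc libraries called 2 (1.84%), and leaving out single libraries gave 2 to 5.

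Gzmb went from 137.0, 117.0 and 96.5 CPM on water to 37.0, 40.7 and 43.8 CPM on zinc in GRDim muscle-rich libraries, a log2 fold change of -1.55 ± 0.21 (adjusted p = 0.0043). Gzma went from 142.0, 135.0 and 125.0 CPM to 65.4, 63.8 and 64.1 CPM (-1.08 ± 0.16, adjusted p = 0.00435). DESeq2 called these 2 genes as well, while its filter left Xcl1 and Cd8b1 without an adjusted p. Xcl1 went from 2.74, 2.97 and 2.00 CPM to 1.04, 1.69 and 0.995 CPM (-1.06 ± 0.28, adjusted p = 0.0301), and Cd8b1 from 5.94, 5.21 and 8.24 CPM to 3.55, 3.32 and 2.85 CPM (-1.02 ± 0.27, adjusted p = 0.0307). The values on zinc remained above those of all GRWT muscle-rich water libraries for Gzma, Gzmb, Xcl1 and Cd8b1. Below the fold threshold but past the adjusted p were Cd160, an inhibitory and activating receptor of intraepithelial cells (-0.72 ± 0.16), Nkg7 (-0.68 ± 0.12), Cd8a (-0.61 ± 0.13), Ccl5 (-0.61 ± 0.13) and Itgae (-0.49 ± 0.10).

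Trac (-0.70 ± 0.47), Cd3e (-0.69 ± 0.28), Cd4 (-0.48 ± 0.36), Prf1 (-0.39 ± 0.25) and Trdc (-0.34 ± 0.21) had negative fold changes that did not pass. The granzymes were also lower on zinc relative to T cell genes. Per kilobase, the ratio of Gzma to the summed CD3 genes Cd3d, Cd3e and Cd3g was 6.14 ± 0.47 (SD, n = 3) on water and 4.12 ± 0.11 (SD, n = 3) on zinc in GRDim muscle-rich libraries, and that of Gzmb 3.73 ± 0.52 and 1.82 ± 0.21. In GRWT muscle-rich libraries the Gzma ratio was 4.88 ± 0.93 and 2.46 ± 0.81 (SD, n = 3 each), again without overlap (3.90 to 5.74 and 1.53 to 2.95). These ratios are descriptions with no test. Beside these differences, the B cell and follicle genes summed to 49.8 to 57.8 CPM on water and 32.9 to 42.2 CPM on zinc in the GRDim libraries (0 of 9 called), the macrophage and dendritic cell list to 223 to 238 and 170 to 220 CPM (0 of 9), the plasma cell list to 3660 to 4620 and 3360 to 4280 CPM (0 of 5), the mast cell list to 10.6 to 18.2 and 7.16 to 8.93 CPM (0 of 5), the epithelial list to 17600 to 18700 and 19600 to 20000 CPM (0 of 10), and the ileal segment list to 5530 to 6990 and 6210 to 10500 CPM (0 of 5). Their part in the result was not tested.

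In muscle-rich GRWT libraries no gene of the 36 was called by edgeR (0.163% of all genes called), with 6 at an unadjusted p under 0.05. Gzma stood at 17.1, 30.3 and 29.9 CPM on water and at 15.6, 13.3 and 14 CPM on zinc, all lower, with a log2 fold change of -0.84 ± 0.19 (adjusted p = 0.119). DESeq2 called 1 gene, which was Gzma (-0.85, adjusted p = 4.33e-05), and without GRWT water replicate 1 edgeR called 2, Gzma (-1.06) and Cd7 (-0.81). Gzmb (-0.56 ± 0.25), Prf1 (-0.30 ± 0.32), Cd8a (-0.23 ± 0.15), Trdc (-0.20 ± 0.23) and Itgae (-0.03 ± 0.11) lay below 0, and Trac (0.78 ± 0.53), Cd4 (0.31 ± 0.38) and Cd3e (0.23 ± 0.33) above it. Of the 36 genes 22 had positive fold changes, with a median of 0.20. Without the follicle-rich GRWT zinc replicate 1, 7 were positive and 29 negative, with a median of -0.23, and 0 were called. Only Gzma and Klrd1 were lower in every zinc library (7.56% of genes), and only Xcl1 was higher in every one (7.31%). Between the same libraries, on water and on zinc, the smooth muscle genes summed to 2310 to 2530 and 1680 to 2210 CPM, the fibroblast genes to 729 to 988 and 593 to 816 CPM, the B cell and follicle genes to 17.2 to 22.8 and 16 to 333 CPM and the ileal segment genes to 9190 to 10700 and 10000 to 12400 CPM. The sums of the plasma cell, macrophage, mast cell and epithelial lists overlapped between water and zinc, 0 genes of these 8 lists were called, and their part in the values was not tested.

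The difference between the genotypes in the zinc effect, tested as an interaction, passed for 0 of the 36 genes in muscle-rich libraries with edgeR (0.263% of all genes), with 13 at an unadjusted p under 0.05 and 34 of 36 estimates negative (median -0.68). Gzmb had -0.99 ± 0.33 (adjusted p = 0.215), and DESeq2 called that gene alone (-0.98, adjusted p = 0.0169). Gzma had -0.24 ± 0.24 and Cd8a -0.39 ± 0.20. Without GRWT zinc replicate 1 the median was -0.37 and 0 genes passed. So the zinc effect was not shown to differ between GRDim and GRWT mice for these genes by the test used throughout.

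**Figure D4:**
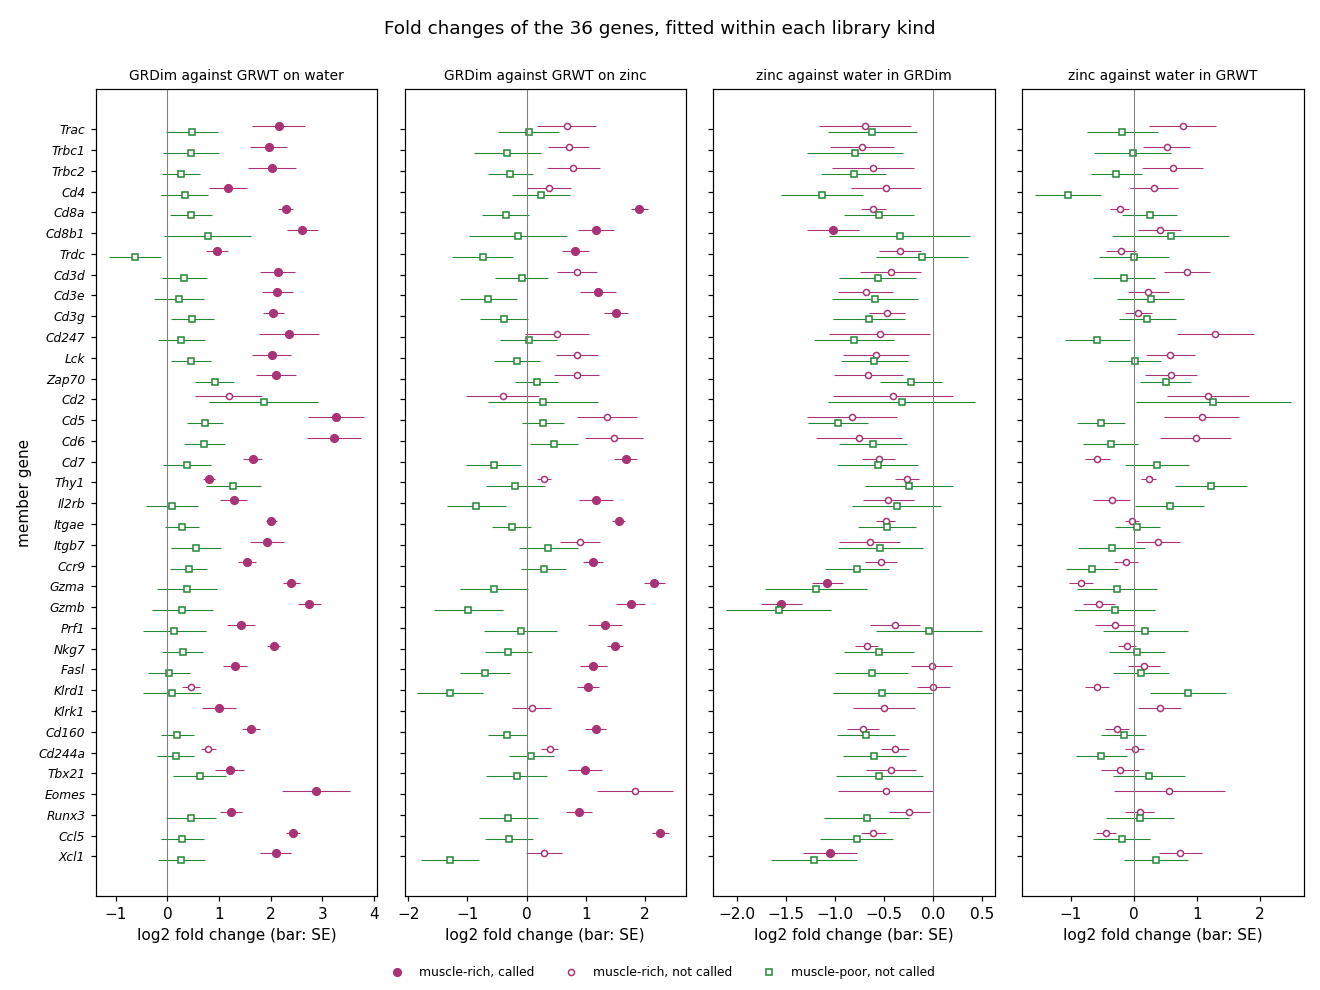
Log2 fold change (point) and SE (bar) of each of the 36 genes in 4 comparisons, fitted apart in muscle-rich (circles) and muscle-poor (squares) libraries, with filled points called. In muscle-rich libraries 33, 19, 4 and 0 genes were called from the left panel to the right, and in muscle-poor libraries 0 in each.

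In muscle-poor libraries 34 of the 36 genes had enough counts to be tested. Klrk1, at 0 to 0.392 CPM, and Eomes, at 0 to 0.706 CPM, were left out. No gene was called in GRDim against GRWT on water (0.0288% of all genes), on zinc (0.0575%), in zinc against water in GRWT (0.0431%), in GRDim (0.0575%) or in the interaction (0%). At an unadjusted p under 0.05, edgeR gave 2, 2, 0, 8 and 1 of the 34 genes in that order, and DESeq2, which called 0 in each, gave 3, 2, 2, 9 and 2. In most of the 36 genes GRWT replicate 3 stood higher than replicate 2 both on water and on zinc, the exceptions being Cd2 on water and Cd4, Klrk1 and Eomes on zinc. By library total, without the scaling factor, Cd5, Cd6 and Ccr9 were exceptions on zinc too. They stood at 4.52, 7.55 and 4.8 CPM in replicate 2 and at 3.77, 6.57 and 3.56 CPM in replicate 3.

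Gzma shows the spread. It stood at 56.3 and 159.0 CPM in muscle-poor GRWT water, at 36.3 and 140.0 CPM in GRWT zinc, at 183.0, 146.0 and 95.0 CPM in GRDim water and at 54.2, 56.8 and 73.2 CPM in GRDim zinc libraries. Gzmb stood at 40.7 and 112.0, 25.9 and 96.5, 122.0, 104.0 and 56.9, and 30.8, 25.3 and 38.3 CPM in the same order. In both genes the GRWT values reached from near the GRDim zinc values to near the highest GRDim water value, and the 3 GRDim zinc libraries lay below the 3 GRDim water libraries. Zinc against water in GRDim gave -1.57 ± 0.53 for Gzmb (adjusted p = 0.527) and -1.20 ± 0.52 for Gzma (adjusted p = 0.626), close to the muscle-rich estimates. Prf1 stood at 1.00 and 3.29, 1.07 and 3.95, 2.39, 2.28 and 2.46, and 2.32, 1.41 and 3.18 CPM, with no order between the conditions.

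All 34 fold changes of zinc against water in muscle-poor GRDim libraries were negative, with a median of -0.60, and 14 of the 36 genes did not overlap (12.1% of genes). Cd4 went from 11.5, 8.59 and 5.98 CPM to 3.56, 3.87 and 4.35 CPM (-1.14 ± 0.42, adjusted p = 0.555). The SE depended on the GRWT zinc libraries in the fit, the value being -1.13 ± 0.22 with either of them left out. Cd8a, at 62.6, 63.0 and 54.2 CPM on water, had 30.9, 36.6 and 54.5 CPM on zinc (-0.56 ± 0.36), and Itgae, at 59.2, 62.1 and 48.6 CPM, had 30.6, 38.2 and 53.3 CPM (-0.47 ± 0.30), in both cases with GRDim zinc replicate 6 among the water values. Trac went from 11.0, 11.4 and 9.0 CPM to 4.34, 5.58 and 10.4 CPM (-0.62 ± 0.45) and Cd3e from 13.5, 12.7 and 8.93 CPM to 6.97, 7.51 and 8.70 CPM (-0.59 ± 0.43). Trdc, at 6.08, 4.41 and 4.08 CPM and then 4.34, 3.50 and 5.59 CPM, differed little (-0.11 ± 0.47). Here the water libraries are labelled ileum and the zinc ones IEC, the reverse of the muscle-rich libraries. The plasma cell genes summed to 27.2 to 40.8 CPM on water and 8.63 to 18.0 CPM on zinc (0 of 4 tested called), and their part was not tested. With the 2 muscle-poor GRWT zinc libraries left out of the fit, 2 genes were called in this comparison (1.52% of all genes).

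In GRDim against GRWT on water, 33 of the 34 muscle-poor fold changes were positive with a median of 0.36, and 7 of 36 genes did not overlap (19.6% of genes). Between the same GRWT and GRDim water libraries the plasma cell genes summed to 14.5 to 14.8 and 27.2 to 40.8 CPM, the mast cell and granulocyte genes to 54.6 to 63.8 and 6.05 to 9.96 CPM and the ileal segment genes to 14400 to 14700 and 11100 to 12300 CPM, with 0 genes of these lists called, and their part was not tested. GRWT water replicates 2 and 3 stood at 35.2 and 51.9 CPM for Cd8a, 36.5 and 56.0 for Itgae, 5.85 and 9.10 for Trac, 7.02 and 12.9 for Cd3e and 6.61 and 7.06 for Cd4. For Trac (0.48 ± 0.51), Cd8a (0.45 ± 0.40), Gzma (0.38 ± 0.58), Cd4 (0.33 ± 0.45), Itgae (0.28 ± 0.33) and Cd3e (0.22 ± 0.48) the estimates were smaller than in muscle-rich libraries. Trdc, at 4.60 and 10.3 CPM in the GRWT libraries, was the 1 gene with a negative value (-0.63 ± 0.51). GRWT zinc replicates 2 and 3 stood at 27.0 and 75.5 CPM for Cd8a, 31.9 and 63.3 for Itgae, 2.97 and 10.3 for Trac, 3.36 and 11.5 for Trdc, and 5.11 and 18.9 for Cd3e, but at 5.19 and 1.18 CPM for Cd4. By library total, without the scaling factor, replicate 3 stood at 48.4 CPM for Cd8a, 40.6 for Itgae, 6.57 for Trac, 7.39 for Trdc and 12.1 for Cd3e. GRWT zinc replicate 3, the library nearly without Fabp6, also stood at 94.0 CPM for Il15, the cytokine that sustains intraepithelial lymphocytes, against at most 29.4 CPM in the other 21 libraries. In zinc against water within GRWT, Cd4 and Cd5 were the genes lower in both zinc libraries (19.9% of genes), and Cd2, at 0.334 and 0.0785 CPM on water and 0.381 and 0.641 CPM on zinc, was the only one higher in both (18.3%). By library total, without the scaling factor, Cd6, Cd247 and Cd244a were lower in both as well. On zinc, 24 of 34 genotype fold changes were negative (median -0.26), but these GRWT libraries are labelled ileum and the GRDim ones IEC, so that genotype and tissue label cannot be told apart. The sign also rested on GRWT zinc replicate 3. Without it, so that replicate 2 stood alone, only Fasl (-0.03), Xcl1 (-0.15) and Cd4 (-0.39) were negative. Trac then had 1.19, Gzma 0.77 and Cd8a 0.60. The mast cell and granulocyte genes summed to 30.9 to 90.9 CPM in these GRWT and 6.06 to 7.12 CPM in these GRDim libraries (1 of 4 tested called lower), and their part was not tested. Zinc against water in GRWT changed sign with the library left out. Without replicate 2, so that replicate 3 stood alone for its condition, the log2 fold changes of Gzma, Cd3e, Cd8a, Cd7 and Il2rb were 0.40, 0.94, 0.81, 1.03 and 1.24. Those of Cd4 (-2.51), Cd5, Cd6, Ccr9 and Cd244a were then negative. Without replicate 3, so that replicate 2 stood alone, the same 5 were -1.58, -0.98, -0.70, -0.92 and -0.74, and only Cd2 was positive (0.87).

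Whether the genotype difference itself differed between muscle-rich and muscle-poor libraries was tested across all 22 libraries with a mean for each condition and kind, a fit added after the data were seen. On water 4 of the 36 genes had a larger difference in muscle-rich libraries, beside 1.31% of all genes (0.793% larger and 0.519% smaller in muscle-rich libraries): Ccl5 by 2.12 ± 0.43 on the log2 scale (adjusted p = 0.0205), Cd8a by 1.81 ± 0.42 (adjusted p = 0.0418), Nkg7 by 1.74 ± 0.40 (adjusted p = 0.038) and Itgae by 1.70 ± 0.34 (adjusted p = 0.0169). Without the Fabp6-poor GRWT zinc replicate 3, 15 genes passed (7.11% of all genes). On zinc 11 genes passed, all larger in muscle-rich libraries (2.87% of all genes, 2.23% larger and 0.641% smaller), and 0 without that replicate, with 8 at an unadjusted p under 0.05 (no DESeq2 fit was made). The zinc effect in GRDim mice differed between the kinds for 0 of the 36 genes (0% of all genes), also at an unadjusted p under 0.05. Its difference was 0.14 ± 0.56 for Gzma and -0.03 ± 0.39 for Cd8a.

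The same fit compares muscle-rich with muscle-poor libraries inside a condition. Among GRWT water libraries 18 of the 36 genes were called lower and 2 higher in muscle-rich libraries (21.8% of all genes called, 3.6% lower and 18.2% higher), with Ccl5 at -2.46 ± 0.32, Gzma at -2.07 ± 0.44, Cd8a at -2.03 ± 0.32 and Itgae at -1.72 ± 0.25. Among GRWT zinc libraries 16 were lower and 3 higher (30.2%, 9.12% lower and 21.1% higher), and without GRWT zinc replicate 3, 5 were lower and 2 higher (19.3%). Among GRDim libraries 0 were lower, and 4 were higher on water (20.6% of all genes called, 18% higher and 2.59% lower) and 5 on zinc (20.5%, 18.5% higher and 2.01% lower). Gzma then differed by -0.08 ± 0.39 on water and 0.06 ± 0.40 on zinc, and Cd8a by -0.22 ± 0.27 and -0.25 ± 0.28. For Gzma and Cd8a the genotype difference of the muscle-rich libraries thus stood beside low GRWT values there, while their GRDim levels were close in both kinds. This did not hold for all of the 36 genes. In GRDim water libraries Cd4 had means of 23.3 CPM in muscle-rich and 8.68 CPM in muscle-poor ones, and Ccr9 25.5 and 11.5 CPM.

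With the condition as a covariate, 4 of the 36 genes were called higher and 6 lower in the 12 muscle-rich than in the 10 muscle-poor libraries, beside 23.1% of all genes called, 19.5% higher and 3.58% lower. The higher ones were Klrk1 (3.63 ± 0.35), Cd2 (2.28 ± 0.37), Cd4 (1.53 ± 0.24, adjusted p = 1.03e-05) and Ccr9 (0.87 ± 0.18). Klrk1 ran from 1.03 to 3.18 CPM in muscle-rich libraries and to at most 0.392 CPM in muscle-poor ones, and Cd2 from 1.10 to 7.28 CPM against 0 to 1.09 CPM, so that neither overlapped. The lower ones were Ccl5 (-1.28 ± 0.31), Cd7 (-1.12 ± 0.27), Cd8a (-1.12 ± 0.28), Gzma (-1.05 ± 0.34), Nkg7 (-1.01 ± 0.24) and Cd3g (-0.84 ± 0.25). Trac (-0.18 ± 0.28) and Trdc (-0.07 ± 0.25) were not called. Cd28, a co-stimulatory receptor of T cells outside the 36 genes, had the same order as Cd2 and Cd4, with 4.06 to 14.2 CPM in muscle-rich and 0.0774 to 0.846 CPM in muscle-poor libraries (4.51 ± 0.25).

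**Figure D5:**
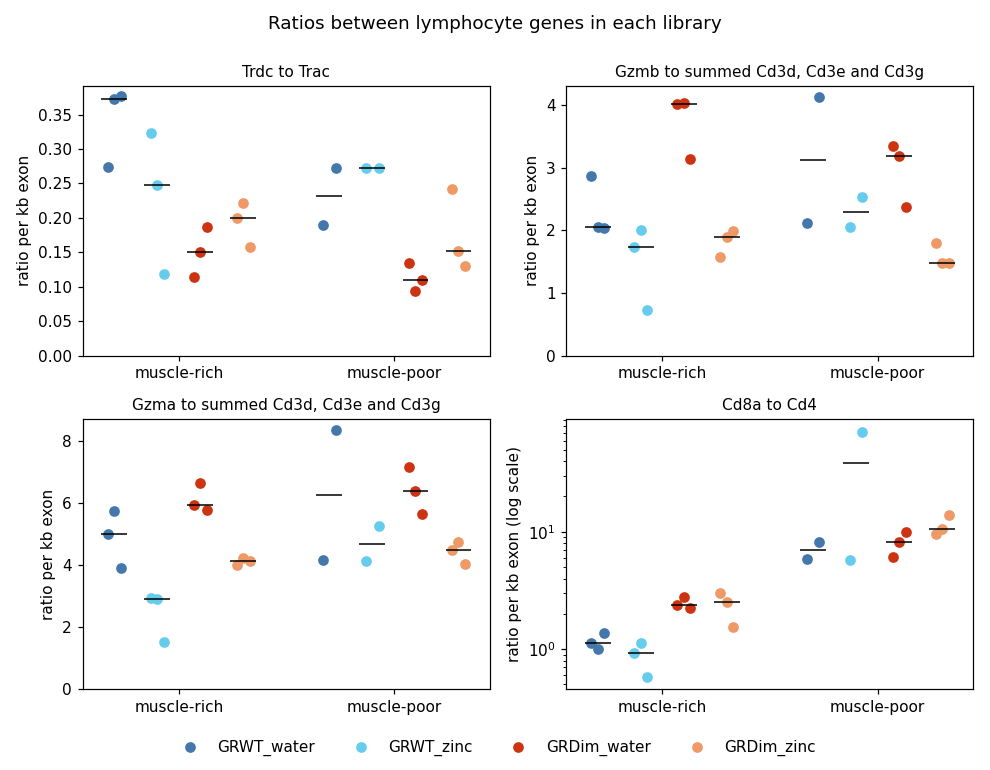
Ratios between lymphocyte genes per kilobase of exon in each library (points) with the median of each condition (line), apart for muscle-rich and muscle-poor libraries, the Cd8a to Cd4 panel on a log axis. In muscle-rich libraries the GRDim water points lie below the GRWT water points for Trdc to Trac (0.114 to 0.186 and 0.274 to 0.377), and in GRDim libraries of both kinds the zinc points lie below the water points for Gzma to CD3.

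Some ratios were ordered in muscle-poor as in muscle-rich libraries and others were not. Trdc to Trac was 0.232 ± 0.059 (SD, n = 2) in GRWT water and 0.112 ± 0.020 (SD, n = 3) in GRDim water libraries (0.190 to 0.273 and 0.0935 to 0.134). Gzma to the summed CD3 genes was 6.41 ± 0.76 on water and 4.43 ± 0.36 on zinc in GRDim libraries (5.66 to 7.18 and 4.05 to 4.76), and Gzmb to CD3 was 2.97 ± 0.52 and 1.59 ± 0.18 (2.37 to 3.34 and 1.48 to 1.79, SD, n = 3 each). None of these pairs of ranges overlapped. In muscle-poor GRWT libraries they did overlap, Gzma to CD3 being 4.17 and 8.37 on water and 4.12 and 5.26 on zinc, and Gzmb to CD3 2.11 and 4.13 on water and 2.06 and 2.53 on zinc. Cd8a to Cd4 was higher in all muscle-poor libraries, from 5.77 to 71.3, than in all muscle-rich ones, from 0.583 to 3.03. Cd8b1 stayed below Cd8a in every library, with ratios from 0.0693 to 0.422.

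How far the genes moved together between libraries of 1 condition was described by the correlation of log2 CPM after the condition means were removed, over all 630 pairs of the 36 genes. The median r was 0.835 over the 10 muscle-poor libraries, 0.472 over the 12 muscle-rich ones and 0.236 over 11 without GRWT zinc replicate 1, and these points share library depth and composition. In muscle-rich libraries Gzma was most like Tbx21, the transcription factor T-bet (r = 0.931), and Cd7 (0.926), and Trac most like Lck (0.961). Trdc was most like Il2rb, the receptor chain for IL-15 (0.762). Without GRWT zinc replicate 1 (n = 11) Gzma was most like Cd7 (0.961) and Tbx21 (0.933), Trac was most like Cd7 (0.802), with Lck no longer among its 3 nearest genes, and the value of Trdc with Il2rb was 0.527. In muscle-poor libraries Gzma was most like Gzmb (0.987) and Trac like Cd8a (0.993).

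Other genes of the same cells were counted from fixed lists. Of 18 further genes of T cell signalling and activation, 13 were called higher in GRDim than in GRWT muscle-rich libraries on water and 0 lower (5.02% of all genes higher and 5.47% lower), with Cd96 (2.24 ± 0.20) and Cd226 (2.05 ± 0.27), receptors for nectin-like ligands, among them. Of 11 tested of 18 further cytotoxic and NK cell genes 5 were called higher, Crtam, a receptor of activated CD8 T cells, leading (2.65 ± 0.33). On zinc in the GRDim libraries, 0 of these 29 genes were called, with 6 and 2 at an unadjusted p under 0.05 (DESeq2 values were taken for the 36 genes alone). Of 16 tested of 18 epithelial genes that bind or feed intraepithelial lymphocytes, 1 was called higher in GRDim muscle-rich water libraries, H2-T23, a ligand of NKG2A (0.91 ± 0.09), and 1 lower, Il15 (-0.97 ± 0.13, from 15.4 to 19.3 CPM in GRWT to 7.05 to 10.6 CPM in GRDim). Btnl1 (-0.19 ± 0.07) and Btnl6 (-0.06 ± 0.11), butyrophilin-like genes that select gamma-delta cells, were not.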

How the data were processed

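RNA was sequenced as single-end reads from stranded libraries. Per the labels and the study's methods, the authors trimmed reads with Trimmomatic, aligned them to mm10 with HISAT2 2.0.4, and counted those that mapped once with featureCounts; the annotation release and strand setting are not given in the sources used here. The deposited values are raw counts per Ensembl gene. From these, edgeR 4.0.16 in R 4.3.3 (TMM scaling, robust quasi-likelihood F test) was fitted apart to 12 muscle-rich libraries (15947 genes after filterByExpr) and 10 muscle-poor libraries (13908 genes), and p-values were adjusted by Benjamini-Hochberg over all genes tested. Genes were called at an adjusted p under 0.05 and a log2 fold change beyond 0.8, interactions by adjusted p alone. A pair of deposited columns of the same name was used as unnumbered GRDim water replicates. The members and the gene lists were chosen with earlier results of these data known. Named genes are up to 8 called members per direction and comparison with the largest fold changes, plus Cd3e, Trac, Trdc, Cd4, Cd8a, Itgae, Gzma, Gzmb and Prf1, and from other lists up to 4 called genes; other genes were named after their values were seen. Printed CPM are scaled by TMM factors over all 22 libraries, and on that scale 3 reads stand at 0.177 to 0.251 CPM, or 0.320 CPM in muscle-poor GRWT zinc replicate 3. Alternatives were DESeq2 1.42.0, other scaling and filters, no fold threshold, pooled fits with covariates or a replicate block, and leaving out each library. The scripts were tested on simulated data.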

Additional observations from a re-analysis of the deposited data

Results flagged for a closer look

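In 33 cases the highest or lowest library of a condition, muscle-rich and muscle-poor together, lay far from the next one, and 144 tests were made. No chance rate can be set beside this count, since the library kinds differ within a condition and the genes move together. Muscle-poor GRWT zinc replicate 3 was the highest of its 5 libraries for Cd8a (75.5 CPM, next 27.0), Cd8b1 (8.76, next 1.89), Trdc (11.5, next 5.01), Cd3g (53.2, next 18.1), Cd7 (54.5, next 14.4) and Il2rb (30.2, next 9.56). It was also the highest for Gzma (140.0 CPM), Gzmb (96.5), Prf1 (3.95), Nkg7 (25.4), Fasl (3.52), Klrd1 (11.3), Tbx21 (2.99), Ccl5 (128.0) and Xcl1 (3.20). By library total, without the TMM factor of 0.641 that this library has, it stood at 48.4 CPM for Cd8a and 61.8 CPM for Gzmb, and 5 of these 15 cases still lay far from the next library, as did 13 of all 33 cases. That scaling was tried after seeing the data. In that library Fabp6 stood at 18.3 CPM and Il15 at 94.0 CPM.

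Muscle-poor GRWT water replicate 3 was the highest of its 5 libraries for Trbc1 (6.83 CPM, next 2.59), Cd8b1 (4.63), Itgb7 (20.3), Gzma (159.0, next 56.3), Gzmb (112.0, next 40.7), Prf1 (3.29), Klrd1 (4.55), Cd244a (7.53) and Eomes (0.706). Muscle-poor GRDim zinc replicate 6 was the highest of its 6 libraries for Cd8a (54.5 CPM, next 36.8), Zap70 (7.92), Cd7 (29.0) and Nkg7 (19.1). In GRDim zinc, Fasl was lowest in replicate 5 (0.893 CPM) and Xcl1 highest in replicate 2 (1.69 CPM). An unnumbered GRDim water library was the lowest for Cd247 (4.22 CPM, next 6.46) and Cd244a (5.21, next 6.85). Cd2 was highest in muscle-rich GRWT zinc replicate 1 (7.28 CPM, next 1.38), the follicle-rich library.

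The genotype difference was larger in muscle-rich than in muscle-poor libraries by the test of that difference, made after the data were seen, for 4 genes on water, Ccl5 (by 2.12 on the log2 scale), Cd8a (1.81), Nkg7 (1.74) and Itgae (1.70). On zinc it was larger for Gzmb (2.71), Gzma (2.68), Ccl5 (2.54), Klrd1 (2.31), Cd8a (2.23), Cd7 (2.20), Cd3g (1.87), Fasl (1.82), Nkg7 (1.78), Itgae (1.78) and Cd160 (1.47), and for 0 of these without GRWT zinc replicate 3.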

How the results depend on the processing

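Counts are of the 36 genes called. GRDim against GRWT on water in muscle-rich libraries (33 genes) gave 30 to 33 with each library left out in turn, and GRDim against GRWT on zinc (19) gave 14 to 32, lowest without GRWT zinc replicate 4 and highest without GRWT zinc replicate 1. Zinc in GRDim (4) gave 2 to 5, zinc in GRWT (0) gave 0 to 2, and the interaction (0) gave 0. In muscle-poor libraries, where the main count was 0 throughout, leaving out a library gave 0 to 8 for zinc in GRWT, 0 to 2 for zinc in GRDim, 0 for genotype on water, and 0 to 11 for genotype on zinc and for the interaction, the highest counts being without GRWT zinc replicate 2 (where 30.1%, 31.4% and 39.3% of all genes were called for zinc in GRWT, genotype on zinc and the interaction), or, for zinc in GRDim, without either GRWT zinc library. These fits leave 1 library in that condition, which is assumed to vary like the others. Muscle-rich against muscle-poor (10) gave 7 to 13. DESeq2 called 1, 2 and 1 genes in muscle-rich libraries for zinc in GRWT, zinc in GRDim and the interaction. Without a count filter the interaction gave 2, and without the fold threshold zinc in GRDim gave 9. With all 22 libraries in 1 fit and the muscle split as covariate, zinc in GRDim gave 0, genotype on water 25 and genotype on zinc 1. With the tissue label in place of the split these were 0, 5 and 0. Leaving the follicle-rich and the Fabp6-poor GRWT zinc libraries out of the fit with the split, chosen after seeing the data, gave 2, 31 and 15, and leaving out both muscle-poor GRWT zinc libraries, likewise, gave 2 for zinc in muscle-poor GRDim. The cause of these changes was not tested. Whether the replicate numbers pair the samples cannot be told from these values. Same-numbered GRWT libraries deviated from their condition means with correlations of -0.113 to 0.075 over 15201 genes. Differently numbered muscle-rich GRWT libraries gave -0.248 to 0.287. Each mean rests on few libraries, and GRDim libraries were not compared in this way. A fit of the numbered libraries with the split and a replicate block gave 8 for zinc in GRDim (1.42% of all genes), 28 for genotype on water (6.10%) and 1 for genotype on zinc (0.803%). That block also adjusts for the tissue label, which is the same for each replicate number in every condition. For the called named genes, 72 values under these alternatives, leaving out of single libraries aside, were no longer called, 28 of them with the tissue label, 19 with the split and 14 with the block, 246 remained called, 2 had no adjusted p in DESeq2, and 0 changed sign. Counts as low as those of Eomes, Klrk1 and Cd2 limit what can be seen of these genes, and 2 GRWT libraries per condition limit the muscle-poor comparisons.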

Other observations

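In muscle-rich libraries, of 16 helper, regulatory and cytokine genes tested, 9 were called higher and 1 lower in GRDim than in GRWT mice on water, beside 5.02% and 5.47% of all genes. Ifng, the gene of interferon gamma, stood at 0.0652 to 0.181 CPM in GRWT water, at or under the level of 3 reads, and at 1.05 to 2.22 CPM in GRDim water libraries. Il17a had no read in the 6 muscle-rich GRWT libraries, stood at 1.06 to 3.07 CPM in GRDim water and at 0.332 to 0.391 CPM in GRDim zinc libraries, and was called lower on zinc in GRDim mice (-2.43 ± 0.47, adjusted p = 0.0121 by edgeR). Tnf was called lower on zinc in GRDim mice as well (-1.81 ± 0.44). As for the 36 genes, zinc and tissue label cannot be told apart in these GRDim libraries.

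Raet1e and Raet1d, which encode stress ligands of the receptor encoded by Klrk1, were called higher on zinc in both genotypes of muscle-rich libraries. Raet1e stood at 0.138 to 0.264 CPM in the 6 water libraries and at 0.826 to 3.34 CPM in the 6 zinc libraries, a log2 fold change by edgeR of 3.39 ± 0.59 in GRWT mice, with an adjusted p of 0.0261, and of 2.96 ± 0.57 in GRDim mice, with an adjusted p of 0.0074. The GRWT water libraries of Raet1d held at most 0.130 CPM, under the level of 3 reads, and its zinc libraries 0.344 to 2.23 CPM. In muscle-poor libraries Mcpt1, a protease of mucosal mast cells, stood at 20.3 to 58.4 CPM in the 4 GRWT and at 3.57 to 6.08 CPM in the 6 GRDim libraries, the reverse of the muscle-rich order on water (0.587 to 1.81 CPM in GRWT and 4.47 to 9.0 CPM in GRDim).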
